A study of Homo sapiens with 6 samples.

Results

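CDKN1A, DDB2 and BBC3, 3 target genes of the tumour suppressor p53, were followed through p63 knockdown in ME-180 cells and p63 overexpression in SiHa cells. They were chosen by name, and every transcript row with those names was taken. Each of the 2 RNA tables held 7 such rows, 3 of CDKN1A, 1 of DDB2 and 3 of BBC3, among 15189 transcript rows of 8798 genes for ME-180 and 16600 rows of 9490 genes for SiHa. Together the tables hold 10661 genes. The RNA libraries were ME-180 labelled knockdown (described as shp63), ME-180 control (described as plko), SiHa with p63 overexpression and SiHa with vector. The labels do not say which p63 isoform was introduced into SiHa, whether a line was a clone, or how long cells were kept after treatment. Each group had 1 library, so no difference was tested against a spread between replicates, and every interval below is a 95% interval for counting error only.

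p53 is a transcription factor that is stabilised after DNA damage and switches on genes of cell cycle arrest, DNA repair and cell death. p63 and p73 belong to the same family and can bind similar DNA elements, so some p53 targets are also p63 targets, and the p63 isoform that lacks the amino-terminal activation domain can repress as well as activate them. ME-180 and SiHa are cervical carcinoma lines known to carry integrated human papillomavirus, whose E6 protein directs p53 to degradation through the ubiquitin ligase UBE3A. CDKN1A encodes p21, which inhibits cyclin-dependent kinases. DDB2 recognises ultraviolet lesions in DNA for nucleotide excision repair. BBC3 encodes PUMA, a BH3-only protein that triggers apoptosis by binding BCL2 and its relatives.

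The comparison asks whether these shared targets follow p63, that is, whether they are lower where p63 is reduced and higher where it is raised. CDKN1A was on that course in both lines. DDB2 was lower with reduced p63 in ME-180 but differed little in SiHa, where the scaling decided whether its counting interval included 1. BBC3 ran the other way in ME-180, and in SiHa its most abundant transcript differed by no more than counting error.

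DDB2 was the 1 member with a p53 element in the promoter sequence at hand, and that element is shown here for this reason. RefSeq promoter windows (GRCh38.p14, from 250 bases before to 50 bases after a listed transcript start) were searched for the 10-base unit of the p53 consensus element, which reads the same on both strands, and for a pair of such units with at most 13 bases between them. Of all 35116 windows, 6.63% held at least 1 unit and 0.0285%, or 10 windows, held a pair. The pair in DDB2 lies on the plus strand at chr11:47214975-47215003 including flanks, in transcribed sequence, from base 6 to base 26 after the listed start, with 1 base between the units. Capitals mark the pair.
DDB2: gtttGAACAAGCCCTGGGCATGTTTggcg
The other DDB2 window, the CDKN1A window (chr6:36678464-36678763) and the BBC3 window (chr19:47232618-47232917) held no unit in these 300 bases. Longer stretches were not searched, and these windows do not bear on elements elsewhere in the genes.

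Among the other p53 target genes listed below, a single unit stood in the windows of FAS, FDXR, PLK2 and SESN1, the 4 that also had a row in both tables. They are printed for comparison with DDB2, again with the unit in capitals. In all, 9 of 95 windows of the listed genes held a unit (9.47%), with the DDB2 window among them. In CDC25C 2 overlapping windows held the same unit, so the 9 windows belong to 8 genes. The 6.63% over all windows was also counted by window.
FAS: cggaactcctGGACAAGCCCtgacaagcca
FDXR: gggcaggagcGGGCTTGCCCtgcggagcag
PLK2: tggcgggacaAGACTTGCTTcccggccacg
SESN1: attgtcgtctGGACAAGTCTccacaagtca
On the GRCh38.p14 build these stretches lie at chr10:88991299-88991328 on the plus strand for FAS, and on the minus strand at chr17:74872986-74873015 for FDXR, chr5:58460199-58460228 for PLK2 and chr6:109009018-109009047 for SESN1. A match is a description of the letters and not evidence of binding. The p63 peaks are on hg19, no gene positions of that build were used here, and so no peak was placed beside a member.

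The libraries differ in more than p63, which bears on every ME-180 value. The table totals were 10046579 counts for the library labelled knockdown, 10804272 for the ME-180 control, 13690639 for SiHa overexpression and 14207637 for the SiHa vector. Levels are CPM, counts scaled to 1000000 counts of each total; the totals sum only the rows deposited and are not sequencing depths. Over the 7627 genes with rows in both tables, Pearson's r of log2(CPM + 1) was 0.810 for the library labelled knockdown with its control and 0.890 for the same library with SiHa vector, while the SiHa pair had 0.993. Genes are not independent replicates. The marker lists moved as well. The 7 squamous markers with a row, TP63 itself among them, were all lower. Their summed level was 40.7 CPM in the library labelled knockdown, against 75852 CPM in its control. The 9 mesenchymal markers with a row summed to 226 CPM against 137 CPM in the control, with 6 of 8 at the minimum level higher and PDGFRB at 0 counts in the control. The 3 simple epithelial markers with a row summed to 131 CPM against 2711 CPM, and the 6 immune markers to 8.66 CPM against 52.7 CPM, with CD3E at 0 in the library labelled knockdown and LYZ at 0 in the control. In SiHa the sum was 9105 CPM with overexpression against 4214 CPM with vector for 9 squamous markers, again with TP63 among them. The other sums were 4617 against 2548 CPM for 5 simple epithelial markers and 38.1 against 57.3 CPM for 10 mesenchymal markers. For 6 immune markers the sums were 138 against 127 CPM. The part of these shifts in the values of the members was not tested.

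TP63 itself followed the labels. Its most abundant transcript, NM_001114980.1, had 6 counts in the library labelled knockdown and 5619 in the ME-180 control, and 179 counts with overexpression and 7 with vector in SiHa. The SiHa overexpression level of 13.1 CPM was far under the 520 CPM of the ME-180 control, in tables scaled separately. TP73 was lower in the library labelled knockdown in all 12 rows, with log2 ratios from -1.61 to -0.93, and NM_001204184.1 had 81 against 198 counts. In SiHa no TP73 row passed 14 counts in either library, too few to compare.

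**Figure D1:**
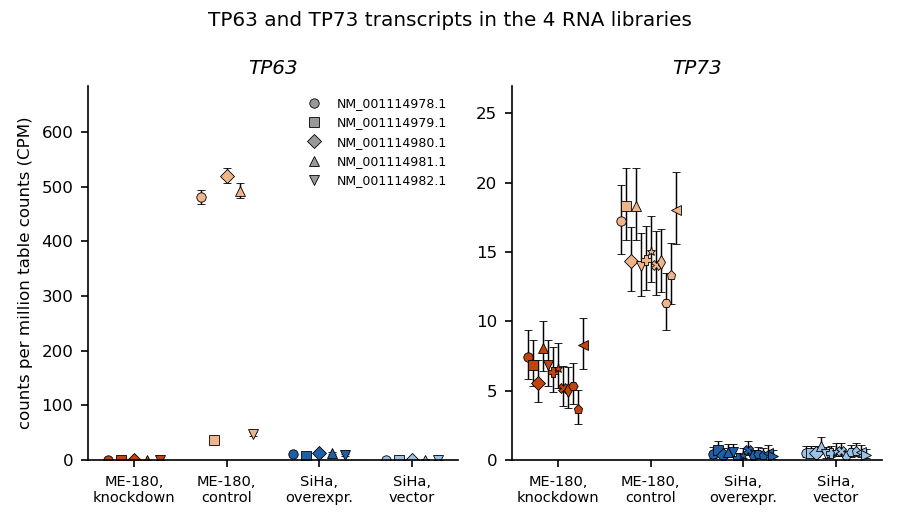
Level of each TP63 and TP73 transcript in CPM (vertical axis, linear, 1 panel per gene) in the 4 RNA libraries. Each point is 1 transcript in 1 library and bars are 95% Poisson intervals; TP63 reached at most 520 CPM in the ME-180 control and 13.1 CPM in SiHa overexpression, and every TP73 row was lower in the library labelled knockdown than in its control.

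CDKN1A was 2.80-fold lower in the library labelled knockdown than in the ME-180 control and 1.54-fold higher in SiHa overexpression than with vector. In ME-180, NM_000389.4 had 835 counts, or 83.1 CPM (77.6 to 88.9), in the library labelled knockdown, against 2514 counts, or 233 CPM (224 to 242), in the control, and the 95% interval of the fold was 2.59 to 3.03. The other rows followed it, with 664 against 2054 counts for NM_001220777.1 and 672 against 2111 counts for NM_001220778.1. In each row the knockdown level was well under the control level. The 3 rows are transcripts of 1 gene that may share reads, so they were not taken as independent measurements.

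In SiHa the same 3 rows were all higher with overexpression. NM_000389.4 had 1233 counts, or 90.1 CPM (85.1 to 95.2), with overexpression, against 831 counts, or 58.5 CPM (54.6 to 62.6), with vector, and the interval of the ratio was 1.41 to 1.68. NM_001220777.1 had 1065 against 764 counts and NM_001220778.1 had 1150 against 775 counts. The intervals of the 2 libraries did not overlap in any of the 3 rows, yet none reached 2-fold. Such a separation is not particular to CDKN1A, and its share over all genes was not counted. The housekeeping gene TFRC, for example, had a SiHa ratio of 1.28 (1.24 to 1.33).

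A gene was called higher or lower where its log2 ratio of CPM plus a pseudocount of 1 was at least 1 in size, a 2-fold difference, and it had at least 1 CPM in a library. By this rule CDKN1A was called lower in ME-180, where 20.6% of 6783 genes were lower and 28.2% higher, and was not called in SiHa. Its log2 ratio of -1.47 was matched or exceeded downward by 980 genes, 14.4% of those tested in ME-180. In SiHa, where 0.572% of 6996 genes were called higher and 0.743% lower, its log2 ratio of 0.61 was matched or exceeded upward by 143 genes, or 2.04%. So many genes differed in ME-180 that the call there sets CDKN1A little apart from the rest.

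DDB2 was 2.90-fold lower in the library labelled knockdown, close to CDKN1A, and differed little in SiHa. NM_000107.2 had 1436 counts, or 143 CPM (136 to 151), in the library labelled knockdown, against 4478 counts, or 414 CPM (402 to 427), in the control, with a fold interval of 2.73 to 3.08. In SiHa it had 1414 counts, or 103 CPM (98.0 to 109), with overexpression, against 1365 counts, or 96.1 CPM (91.0 to 101), with vector. The SiHa ratio was 1.08 (0.997 to 1.16), so by table totals a rise of more than 1.16-fold lay outside the counting interval. Scaled to the transcripts with rows in both tables, the ratio was 1.08 (1.001 to 1.163), an interval that excludes 1. Scaling by trimmed means, described below, put the SiHa log2 ratio at 0.15 in place of 0.10. The log2 ratios were -1.53 in ME-180, which 13.8% of genes matched or exceeded downward, and 0.10 in SiHa, which 25.5% matched or exceeded upward.

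BBC3 was 9.20-fold higher in the library labelled knockdown, against the direction of CDKN1A and DDB2. Its most abundant row, NM_001127240.2, had 291 counts, or 29.0 CPM (25.7 to 32.5), in the library labelled knockdown, against 34 counts, or 3.15 CPM (2.18 to 4.40), in the control, with a ratio interval of 6.44 to 13.5. NM_001127241.2 had 256 against 26 counts, a ratio of 10.6 (7.06 to 16.5), and NM_001127242.2 had 179 against 24 counts, a ratio of 8.02 (5.22 to 12.8). All 3 rows were called higher, and the log2 ratio of 2.85 was matched or exceeded upward by 272 genes, 4.01% of those tested.

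In SiHa the BBC3 rows were all lower in overexpression by their point values. NM_001127240.2 had 89 counts (6.50 CPM) with overexpression against 121 counts (8.52 CPM) with vector, a ratio of 0.763 whose interval of 0.574 to 1.01 includes 1. NM_001127241.2 had 76 against 90 counts, a ratio of 0.876 whose interval also includes 1. NM_001127242.2 had 46 against 83 counts, a ratio of 0.575 (0.392 to 0.834), the 1 BBC3 row whose interval lay under 1. This row also stood lowest relative to NM_001127240.2, at 51.7% of its counts with overexpression against 68.6% with vector, and in ME-180 at 61.5% in the library labelled knockdown against 70.6% in the control. No interval was made for these shares, and the BBC3 rows may share reads, so a change in transcript use was not tested. None of the SiHa rows reached 2-fold.

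**Figure D2:**
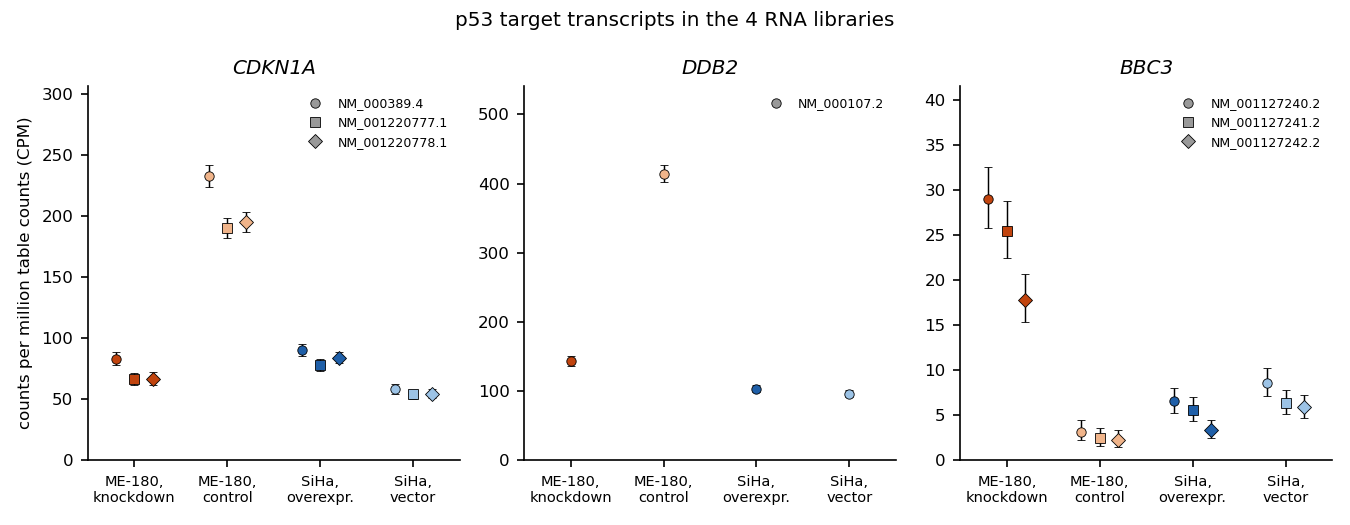
Level of each CDKN1A, DDB2 and BBC3 transcript in CPM (vertical axis, linear, 1 panel per gene) in the 4 RNA libraries. Points are single libraries, symbols are transcripts and bars are 95% Poisson intervals; CDKN1A and DDB2 were highest in the ME-180 control (233 and 414 CPM), BBC3 in the library labelled knockdown (29.0 CPM).

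The authors' deposited table gave the same directions. For the most abundant rows it lists log2 fold changes of -1.81 for CDKN1A, -1.86 for DDB2 and 2.88 for BBC3 in ME-180, with adjusted p of 0.000126, 7.35e-05 and 5.93e-08. In SiHa the authors' deposited table lists 0.66, 0.14 and -0.35, each with an adjusted p of 1. With 1 library per group these p-values contain no measured spread between replicates.

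Across the 4 libraries the order of levels differed by gene, and the tables were scaled separately, so an order between lines is less firm than one within a line. CDKN1A was highest in the ME-180 control, followed by SiHa overexpression, ME-180 labelled knockdown and, lowest, the SiHa vector. The middle neighbours, SiHa overexpression over the library labelled knockdown, had a ratio of 1.08 (0.992 to 1.18). Scaled instead to the 13206 transcripts with rows in both tables, that ratio was 1.57 (1.43 to 1.71), and the library labelled knockdown over the SiHa vector was 0.986 (0.895 to 1.09) in place of 1.42. DDB2 was also highest in that control, and its ratio of the library labelled knockdown over SiHa overexpression was 1.38 (1.29 to 1.49), or 0.957 (0.889 to 1.03) on shared transcripts. For BBC3 the order was the library labelled knockdown, SiHa vector, SiHa overexpression and ME-180 control on both scalings, with the SiHa neighbours 1.31 apart (0.988 to 1.74).

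The genes with the most similar pattern were found by Euclidean distance of log2(CPM + 1) over the 4 libraries, each gene centred on its own mean, among 5086 other genes that reached 100 counts somewhere. Nearest to CDKN1A were HIVEP3, MARVELD2 and CAPN2, at distances of 0.287, 0.344 and 0.347. Nearest to DDB2 were PIK3IP1, CXADR and AHCYL2, at 0.052, 0.066 and 0.113, and nearest to BBC3 were AATK, VASH2 and ANKRD6, at 0.131, 0.158 and 0.198. All 3 neighbours of CDKN1A had a lower SiHa log2 ratio than its 0.61, with the closest value 0.40 in MARVELD2. None of the 9 is on the list of p53 targets. That list holds 76 genes, a small share of those compared, so this does not set the 9 apart.

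The wider set of p53 targets was divided in ME-180. Of 76 listed genes in 5 roles, 38 had a row in the ME-180 table, and absence from a table says nothing of expression. Of the 37 at or above 1 CPM, 12 were called higher and 11 lower, against 28.2% and 20.6% of all genes. Their median log2 ratio was -0.24, beside 0.28 over all genes. Scaling by trimmed means (TMM), which puts the median of all genes at -0.03 and calls 1455 of them higher and 1685 lower (1914 and 1400 by table totals), gave 9 higher and 13 lower and a list median of -0.56. In SiHa 45 listed genes had a row and 41 were at the minimum, with 1 called higher, 1 lower and a median of 0.04, beside -0.05 over all genes.

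Of 3 arrest genes with a row in ME-180, CDKN1A and PLK2 were called lower and 0 higher, beside 20.6% of all genes lower. All 3 were below 0, as were 2820 of 6783 genes. PLK2, a polo-like kinase induced by p53, had 27 counts in the library labelled knockdown against 1088 in the control, 37.5-fold lower (25.6 to 57.1). GADD45A, a stress protein of growth arrest, had 629 against 801 counts and a log2 ratio of -0.24. In SiHa, PLK2 had 1627 counts with overexpression against 1116 with vector, a ratio of 1.51 (1.40 to 1.63), GADD45A a log2 ratio of 0.01 and CDC25C, a phosphatase of mitotic entry that p53 represses, -0.11. Of the 4 arrest genes with a SiHa row, PLK2 and CDKN1A had counting intervals that excluded 1, a share not counted over all genes. This does not set them apart, since housekeeping genes were divided too. RPLP0 excluded 1 (0.868 to 0.891) and GUSB did not (0.954 to 1.04).

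Among cell death genes in ME-180, 5 of 12 including BBC3 were called higher and 1 lower (median log2 ratio 0.35), beside 28.2% and 20.6% of all genes and their median of 0.28. Under TMM 3 were higher and 2 lower with a median of 0.13, and at a minimum of 10 CPM the median was -0.15. EDA2R, a death receptor of the tumour necrosis factor family, had 85 counts in the library labelled knockdown against 23 in the control, a ratio of 3.97 (2.48 to 6.60). TP53I3, an oxidoreductase linked to reactive oxygen, had 67 against 20 counts, a ratio of 3.60 (2.16 to 6.27). TP53AIP1, a mitochondrial apoptosis protein, went against them with 0 against 37 counts. With a floor of 3 counts put in for 0 it was 11.5-fold lower (lower 95% limit 8.87). In SiHa 0 of 11 were called, and the log2 ratios of BID, a BH3 protein cut by caspases, CASP6, a caspase, and TP53I3 were -0.22, 0.22 and 0.25.

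Repair genes were mixed around DDB2. Of 5 in ME-180, 1 was called higher and 1, DDB2, lower (median -0.37), beside 28.2% and 20.6% of all genes. RRM2B, the p53-induced subunit of ribonucleotide reductase, had 490 counts in the library labelled knockdown against 180 in the control, a ratio of 2.93 (2.46 to 3.49), in the opposite direction to DDB2. TP53BP1, a double-strand break adaptor, had a log2 ratio of -0.50. In SiHa 0 of 7 were called, and the log2 ratios of REV3L, DDB2 and FANCC were 0.11, 0.10 and -0.08.

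Of 4 feedback genes in ME-180, 1 was called higher and 1 lower, beside 28.2% and 20.6% of all genes. Under TMM 1 was higher and 2 lower. RCHY1, a ubiquitin ligase that acts on p53, had 467 counts in the library labelled knockdown against 83 in the control, a ratio of 6.05 (4.78 to 7.74). TRIM22, induced by p53 and by interferon, had 0 against 186 counts. With the floor put in for 0 it was 57.7-fold lower (lower 95% limit 46.4). TP53INP1, a stress-induced nuclear protein, and RFWD2, another ligase of p53, had log2 ratios of -0.83 and 0.60. In SiHa TRIM22 had 156 counts with overexpression against 44 with vector, a ratio of 3.68 (2.62 to 5.27), the 1 listed p53 target called higher there. MDM2, the main ligase of p53, had a row in SiHa only, with 1769 counts with overexpression against 1945 with vector (log2 ratio -0.08).

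Metabolic, secreted and membrane targets spread widest in ME-180, with 5 of 14 called higher and 6 lower (median -0.33). Over all genes 28.2% were higher and 20.6% lower. Under TMM 4 of these targets were higher and 7 lower. IGFBP3, a secreted binder of insulin-like growth factors, had 7 counts in the library labelled knockdown against 7718 in the control, 1025-fold lower (497 to 2551). CD82, a tetraspanin, had 94 against 2474 counts, 24.5-fold lower (19.9 to 30.4). CYFIP2 had 937 against 135 counts, a ratio of 7.46 (6.23 to 9.01). In SiHa KITLG, the ligand of the KIT receptor, had 501 counts with overexpression against 269 with vector, a ratio of 1.93 (1.66 to 2.25), and CD82 363 against 227 counts, a ratio of 1.66 (1.40 to 1.97). SERPINB5, a serpin known as maspin, had 1112 against 782 counts (log2 ratio 0.55). CPT1C, a carnitine palmitoyltransferase relative, had 10 against 37 counts, a ratio of 0.280 (0.124 to 0.575), and was the 1 target called lower.

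**Figure D3:**
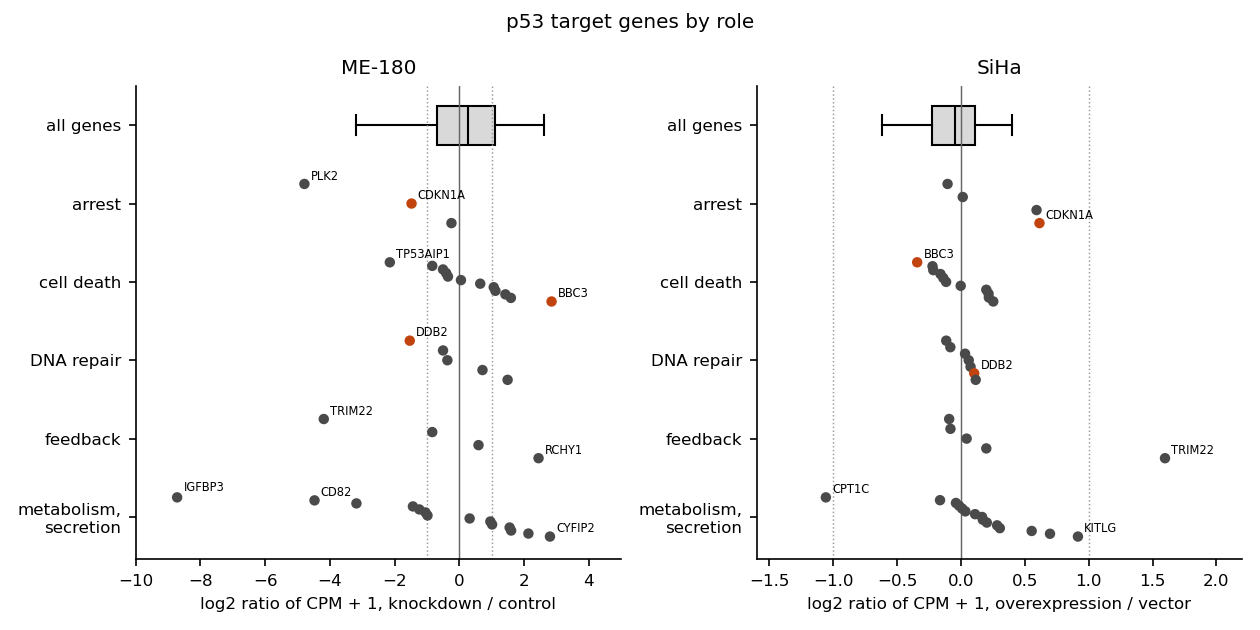
Log2 ratio of CPM + 1 (horizontal axis) for p53 target genes at or above 1 CPM, by role, in ME-180 (left) and SiHa (right, on a narrower axis). Each dot is a gene with CDKN1A, DDB2 and BBC3 in orange, the box and whiskers show the quartiles and the 5th and 95th percentiles of all genes, and dotted lines mark 2-fold; BBC3 (2.85) lies at the high end and CDKN1A (-1.47) and DDB2 (-1.53) on the low side in ME-180, with PLK2, TRIM22, CD82 and IGFBP3 far below them.

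By sign alone, 14 of 34 listed targets at the minimum in both tables were lower in the library labelled knockdown and higher in SiHa overexpression, beside 18.9% of 5573 genes. The reverse held for 8, beside 37.7% of genes. The 3 arrest genes in both tables, CDKN1A, PLK2 and GADD45A, were among the 14, as was DDB2, and BBC3, APAF1 and STEAP3 of the cell death list were among the 8. Many of these SiHa differences were small. When both differences had to exceed 1.2-fold, 6 targets followed p63, namely CDKN1A, PLK2, TRIM22, CD82, IGFBP3 and KITLG, and 2 opposed it, BBC3 and CPT1C. These were 17.6% and 5.88% of the 34 targets. Over all genes the counts were 260 (4.67%) and 708 (12.7%). Under TMM scaling 14 (41.2%) and 5 (14.7%) listed targets followed and opposed p63. Of all 5577 genes, 1531 (27.5%) followed and 1578 (28.3%) opposed it. The experiments were made in different lines and share no library. The tables lack rows for many listed targets, so these counts describe the measured ones.

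**Figure D4:**
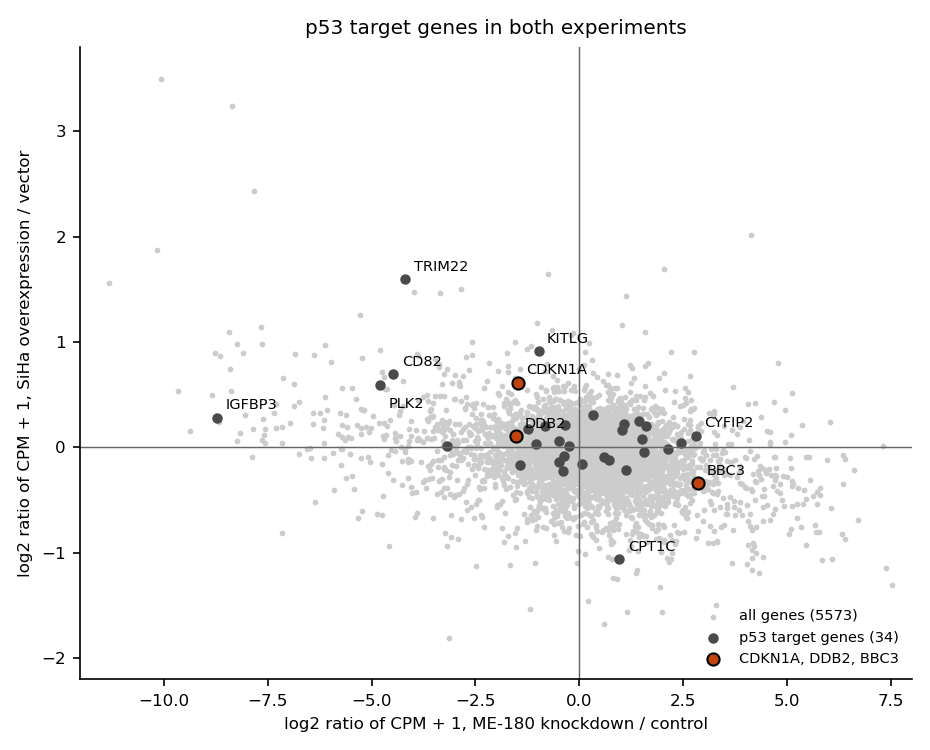
Log2 ratio of CPM + 1 in ME-180, knockdown over control (horizontal axis), against that in SiHa, overexpression over vector (vertical axis), for 5573 genes at or above 1 CPM in both tables. Grey dots are all genes, dark dots 34 p53 targets and orange dots CDKN1A, DDB2 and BBC3; CDKN1A lies in the upper left at -1.47 and 0.61 with CD82, PLK2 and TRIM22, DDB2 just above the horizontal line at 0.10 and BBC3 in the lower right at 2.85 and -0.34.

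Of 11 BCL2 family members at the minimum in ME-180, BBC3 itself and HRK were called higher and 3 lower (median -0.37), beside 28.2% and 20.6% of all genes. The BH3-only genes were divided. BIK had 11 counts in the library labelled knockdown against 488 in the control, 41.3-fold lower (22.9 to 83.2). BMF had 94 against 539 counts, 5.33-fold lower (4.28 to 6.71). In the other direction, HRK had 128 against 50 counts, a ratio of 2.75 (1.97 to 3.90). BCL2L11 had 71 against 37 counts, a ratio of 2.06 (1.37 to 3.16), and was not called. BCL2L1, which encodes the survival protein BCL-XL that PUMA binds, had 487 against 1961 counts, 3.74-fold lower (3.39 to 4.14). In SiHa 0 of 12 were called. BMF had 24 counts with overexpression against 52 with vector, a ratio of 0.479 (0.282 to 0.791), and BIK 185 against 142, a ratio of 1.35 (1.08 to 1.69). BCL2L11, the BH3-only protein BIM, had 27 against 48 counts and BCL2L2, a survival protein, 539 against 759.

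In ME-180 DDB2 had the largest difference among the measured nucleotide excision repair genes. Of 13 at the minimum in ME-180, DDB2 was the 1 called lower, beside 20.6% of all genes. ERCC8, a transcription-coupled repair factor with a log2 ratio of 1.09, was the 1 called higher, beside 28.2% of all genes. Under TMM 2 were lower and 0 higher. RAD23B, a partner of the damage sensor XPC, had 2783 counts in the library labelled knockdown against 5566 in the control (log2 ratio -0.89), and ERCC6, another transcription-coupled repair factor, 463 against 269 (0.86). The list median was -0.05. In SiHa 0 of 20 were called, with log2 ratios from -0.31 in ERCC3, a helicase of TFIIH, to 0.28 in GTF2H2, a TFIIH subunit.

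Around CDKN1A, 2 of 12 cyclin-dependent kinase genes, cyclins and inhibitors were called higher and 2, CDKN3 and CDKN1A itself, lower in ME-180, beside 28.2% and 20.6% of all genes. Under TMM 1 was higher and 2 lower. CCNE1, the cyclin of S-phase entry that p21 holds in check, had 651 counts in the library labelled knockdown against 174 in the control, a ratio of 4.02 (3.40 to 4.78). CDKN2A, which encodes p16 and is raised in many cells with papillomavirus E7, had 3906 against 1714 counts, a ratio of 2.45 (2.31 to 2.60). CDKN3, a phosphatase of cyclin-dependent kinases, had 339 against 1124 counts, 3.08-fold lower (2.73 to 3.49). In SiHa 0 of 17 were called, with CDK1, the mitotic kinase, at 1437 counts with overexpression against 2042 with vector (log2 ratio -0.45) and CCND2, a G1 cyclin, at 527 against 760 (-0.46).

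Proliferation genes that fall when p21 is raised were below 0 in 5 of 8 cases in ME-180, beside 2820 of 6783 genes. TOP2A, a topoisomerase of dividing cells, was the 1 called lower, beside 20.6% of all genes. It had 11880 counts in the library labelled knockdown against 32479 in the control. Under TMM 4 were lower. In SiHa 9 of 11 were below 0, beside 4014 of 6996 genes, with a median of -0.18, beside -0.05 over all genes. There 0 were called, with MKI67, a proliferation marker, at 2760 counts with overexpression against 3777 with vector, a ratio of 0.758 (0.722 to 0.797).

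Of 15 genes of the p53 family and its regulators in ME-180, 4 were called higher and 3, TP63, TP73 and PPP1R13L, lower, shares near the 28.2% and 20.6% of all genes. Under TMM 1 was higher and 3 lower. PPP1R13L, the inhibitor iASPP, had 268 counts in the library labelled knockdown against 2334 in the control, 8.10-fold lower (7.13 to 9.22). MDM4, which binds and restrains p53, had 820 against 285 counts, a ratio of 3.09 (2.70 to 3.55), and HIPK2, a kinase of p53, 957 against 461, a ratio of 2.23. UBE3A, named here for its role with E6 and after its values were seen, had 929 against 826 counts, with a log2 ratio of 0.27 that became -0.04 under TMM. In SiHa TP63 was the 1 of 15 called, and HIPK2, MDM4 and EP300, an acetyltransferase that works with p53, had log2 ratios of -0.34, -0.26 and -0.22. Housekeeping genes give a scale for all of these: in ME-180 they ran from -1.25 in GAPDH to 1.30 in TBP, and in SiHa from -0.27 in HPRT1 to 0.36 in TFRC. In ME-180 CDKN1A and DDB2 thus lay only a little below GAPDH, and in SiHa CDKN1A lay above the whole housekeeping range.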

How the data were processed

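RNA of 4 libraries was analysed, 1 per group. The authors deposited whole-number counts per RefSeq transcript with a log2 fold change and raw and adjusted p-values. The submitters' processing notes name TopHat, Cufflinks, DESeq2 and hg19 with neither versions nor roles; how reads were counted and whether by strand is not given in the sources used here. Counts were divided by table totals (CPM), and each gene was read from its most abundant transcript over a table. Log2 ratios used CPM plus 1, and calls needed 2-fold and 1 CPM in a library. Low genes are understated by the pseudocount. Intervals are exact Poisson and conditional binomial intervals from scipy 1.17.1. Alternatives used TMM (edgeR 4.0.16) and median of ratios (DESeq2 1.42.0). The calls were tested on simulated data with counting noise only, so that test says nothing of spread between replicates. Named genes were the members, genes of the p53 family, and up to 4 genes per list and experiment with the largest log2 ratio; some of these are not reported here. APAF1, STEAP3, UBE3A, HRK and markers at 0 counts were named after their values were seen. Members and lists were chosen with earlier results of these data known. Date-like names were replaced through RefSeq accessions. The peak list was not used.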

Additional observations from a re-analysis of the deposited data

How the results depend on the processing

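Directions of CDKN1A, DDB2 and BBC3 were the same under every alternative run in both lines. In ME-180, log2 ratios under TMM, median of ratios and the authors' deposited values were -1.79, -1.79 and -1.81 for CDKN1A, and -1.85, -1.85 and -1.86 for DDB2, which was -1.63 with keratins KRT5, KRT14 and KRT17 left out of the totals. BBC3 was 2.06 with a pseudocount of 5. In SiHa no member left its counting interval. Of the listed p53 targets, the 1 lower in SiHa became 0 with a pseudocount of 5, summed transcripts or a minimum of 10 CPM. Targets that followed p63 numbered 6 past 1.2-fold, and those that opposed it 5 under TMM and 2 past 1.2-fold. Over all genes, 1914 higher and 1400 lower in ME-180 became 1272 and 918 for pseudocount 5, and 873 were lower at 10 CPM. In SiHa, 40 higher and 52 lower became 113 higher and 227 lower for pseudocount 0.1, 14 and 6 for 5, and 18 and 14 at 10 CPM. Cell death genes higher in ME-180 numbered 2 with a pseudocount of 5 and 3 at 10 CPM, both with 0 lower. The cause was not tested, except that larger pseudocounts shrink low genes by construction. The totals without keratins, the scaling to shared transcripts and the subtraction of the median were chosen after seeing the data. No paired analysis was possible because each group had 1 library, and no replicate could be left out.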
